A study of Mus musculus with 6 samples.

Results

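The 10 genes described here mark inhibitory and cholinergic interneurons or encode their neuropeptides: Sst, Npy, Vip and Cck encode peptides, Pvalb and Calb2 calcium-binding proteins, Lhx6 a transcription factor, and Chat, Gad1 and Gad2 transmitter-synthesising enzymes. They were taken by name from a table of 18614 genes, after transcript counts had been summed per NCBI gene number, and all 10 had a row and passed the filter on low counts, which kept 15126 genes. Bulk RNA was sequenced from mouse subventricular zone (SVZ), a niche of neural stem cells lining the lateral ventricles. There were 3 libraries labelled KO and 3 labelled wild type (WT); the labels describe the mice as Zhx2Δ/Δ, a homozygous deletion of the transcriptional repressor gene Zhx2, and Zhx2+/+. The levels of Zhx2, given below, do not show a loss of its transcript in the KO-labelled libraries. The sources used here give no strain, age, sex, pooling or cell type of the deletion. Nor do they say whether each library is a separate mouse, so the p-values reflect variation between libraries that may be technical.

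Interneurons are the local circuit neurons of the forebrain. Most use GABA, which is made from glutamate by the glutamic acid decarboxylases GAD67 (Gad1) and GAD65 (Gad2), and they are sorted into classes by the peptides and calcium-binding proteins they carry. In and around the SVZ these genes have several sources: interneurons of the adjoining striatum, septum and cortex, striatal projection neurons, which are GABAergic too, and the neuroblasts of the SVZ, many of which become olfactory bulb interneurons. In bulk RNA, fewer cells of a type and less RNA per cell cannot be told apart.

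Several facts of the libraries precede the results. Library totals lay between 17037103 and 17685856 estimated counts. Zhx2 itself was higher in each KO-labelled library than in any WT library, with 67.1, 57.8 and 56.3 CPM (counts scaled to library size) in KO 1 to 3 and 39.8, 40.5 and 38.2 CPM in WT 1 to 3 (log2 fold change 0.61, SE 0.10, edgeR adjusted p = 0.163), so every direction below is that of the KO-labelled libraries against those labelled WT. The genotype tags of KO 2 and KO 3 name ZHX3 and ZHX4, while their titles name ZHX2. Markers of cell types in and around the niche differed between libraries. For choroid plexus and ependymal markers the difference follows the group labels, so dissection and genotype cannot be told apart. Choroid plexus markers summed to between 47.9 and 197 CPM in KO-labelled libraries and between 3641 and 17190 CPM in WT libraries, and ependymal markers to between 105 and 152 CPM in KO-labelled and between 213 and 316 CPM in WT libraries. Striatal projection neuron markers summed to 7081, 9327 and 9255 CPM in KO 1 to 3 and to 1893, 14771 and 4932 CPM in WT 1 to 3. Excitatory neuron markers of cortex and septum summed to 1770, 821 and 705 CPM in KO 1 to 3 and to 1043, 374 and 1383 CPM in WT 1 to 3. The stem cell and progenitor list of the SVZ summed to between 1290 and 1577 CPM in KO-labelled and between 933 and 1559 CPM in WT libraries. The neuroblast list summed to between 1318 and 1501 CPM in KO-labelled and between 1170 and 1383 CPM in WT libraries. A few abundant genes carry much of these sums, such as Slc1a3 at 847 CPM and Gfap at 395 CPM in WT 1. Mki67, a gene of dividing cells, ranged from 1.73 CPM in WT 1 to 14.3 CPM in WT 2. The sums are therefore not a measure of SVZ content.

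No member passed the test. In edgeR's quasi-likelihood test with Benjamini-Hochberg adjustment over all 15126 genes, 0 of 10 members and 0% of all genes reached an adjusted p of 0.05. DESeq2 called 2.06% of genes (0.0397% higher and 2.02% lower in KO-labelled libraries) and limma-voom 0%, and neither called a member. At an unadjusted p under 0.05 edgeR had 1 member, Sst, which was higher, against 9.07% of all genes (2.68% higher and 6.39% lower). The log2 fold change (KO-labelled minus WT) was above 0 for 8 members and below 0 for Pvalb and Calb2, where 53.4% of all genes were above 0. The median over the members was 0.51, against 0.02 over all genes tested, and 7 of 10 had an absolute log2 fold change of at least 0.5, against 11.2% of all genes. These 7 also had the largest SE of the members, from 0.42 (Lhx6 and Chat) to 1.25 (Cck). The members were chosen with earlier results of these data known, so the comparison with all genes is a description only. The groups did not overlap for 1 member, Sst, which was higher; this held for 16.7% of all genes, 8.00% higher and 8.74% lower.

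**Figure D1:**
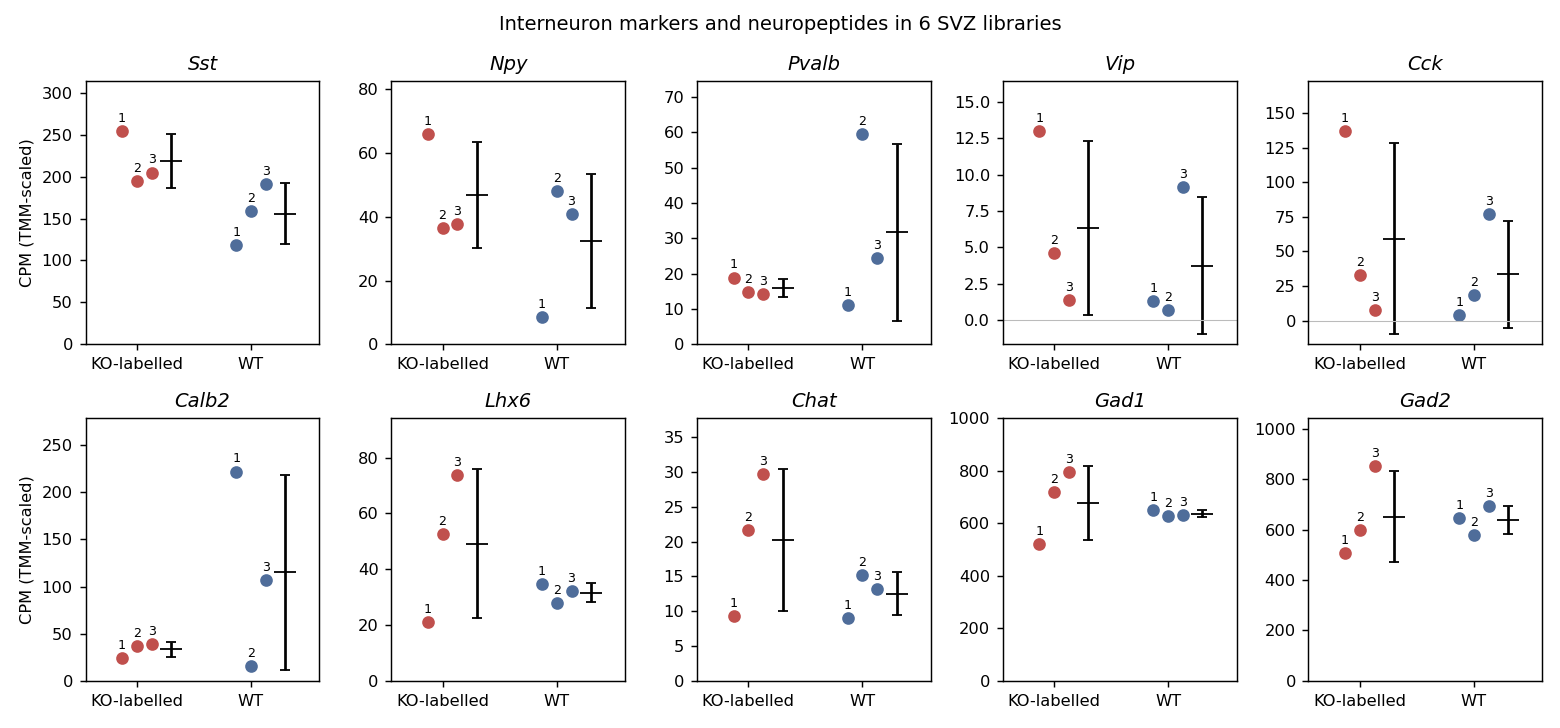
Level of each of the 10 genes (CPM, TMM-scaled, linear axes) in the 3 KO-labelled libraries (red, left) and the 3 WT libraries (blue, right); numbers beside the points are replicate numbers, and the black bars are the mean and SD (n = 3). Sst alone has no overlap between groups, Cck and Vip peak in KO 1 and WT 3, Calb2 peaks in WT 1, and Gad1 and Gad2 stay in a narrow range.

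**Figure D2:**
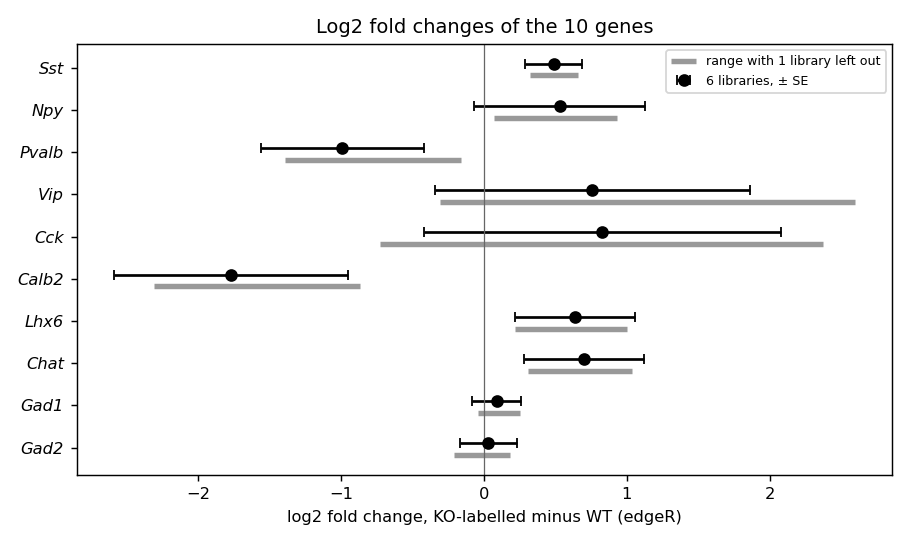
Log2 fold change of each gene, KO-labelled minus WT, from edgeR with 6 libraries (point, ± SE), with the range over the fits that drop 1 library in turn drawn under it (grey bar). The grey bars of Vip, Cck, Gad1 and Gad2 cross 0, and those of Cck and Vip are the widest, from -0.73 to 2.37 and from -0.31 to 2.60.

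To compare levels between genes, the deposited FPKM, which are scaled to transcript length, were summed per gene. Sst had the highest level, with a mean of 327 FPKM over the 6 libraries (range 216 to 435), followed by Gad1 with 205 (162 to 246) and Gad2 with 114 (86.9 to 150). Sst stood above Gad1, and Gad1 above Gad2, in 6 of 6 libraries. Npy averaged 73.0 FPKM (16.3 to 120), Cck 68.5 (6.55 to 200), Calb2 53.5 (10.8 to 164) and Pvalb 28.4 (13.9 to 70.0). The order of these 4 is not firm, since Npy over Cck, Cck over Calb2 and Calb2 over Pvalb each held in 4 of 6 libraries. Lhx6 averaged 12.4 FPKM (6.17 to 22.6), Chat 5.80 (3.24 to 10.5) and Vip 3.29 (0.470 to 8.36). Lhx6 was above Chat in 6 of 6 libraries, and Chat above Vip in 4 of 6.

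Sst encodes somatostatin, an inhibitory peptide carried by dendrite-targeting cortical interneurons and by striatal interneurons that also make neuropeptide Y. Its gene is NCBI gene 20604 (mm10 chromosome 16, 23889573 to 23891342, minus strand). Its promoter, shown because Sst is the member whose groups did not overlap, is a textbook case of control by cyclic AMP. In the 250 bases before the start of the RefSeq promoter entry (GRCm38.p6, the same sequence as mm10, chr16:23890845-23891094, minus strand), the capitals mark the cyclic AMP response element (CRE), TGACGTCA. That start differs from the end of the gene span given above, and the window lies inside the span.
Sst: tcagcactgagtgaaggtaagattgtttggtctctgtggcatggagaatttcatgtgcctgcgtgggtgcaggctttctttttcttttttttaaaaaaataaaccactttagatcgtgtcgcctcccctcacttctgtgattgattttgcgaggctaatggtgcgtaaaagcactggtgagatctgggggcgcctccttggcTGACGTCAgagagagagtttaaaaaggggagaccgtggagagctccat
The CRE begins 48 bases before the start. It was present in 1.55% of 32851 such windows over all RefSeq promoters, searched on both strands, and in 1 of the 9 members with a promoter entry, which have 12 windows.

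Sst stood at 255, 195 and 205 CPM in KO 1 to 3, against 118, 159 and 191 CPM in WT 1 to 3. Every KO-labelled library lay above every WT library, but the lowest of them, KO 2, exceeded WT 3 by little. The means were 219 ± 32.4 CPM in KO-labelled libraries and 156 ± 36.7 CPM in WT libraries (SD, n = 3 each). The log2 fold change was 0.49 (SE 0.20, edgeR unadjusted p = 0.0463, adjusted p = 0.542). It lay between 0.32 and 0.66 with single libraries left out, the lower value without WT 1, and was above 0 in each of the 17 alternative settings. Pan-neuronal genes moved the same way: 13 of 15 had a log2 fold change above 0, with a median of 0.29, against 53.4% of all genes. Of the 15, 5 had no overlap between groups, all higher, which held for 8.00% of all genes. The part of overall neuron content in the Sst difference was not tested. The 3 genes whose log2 CPM followed Sst most closely over the 6 libraries, as a description, were Ensa (r = 0.995), Wipf2 (r = 0.990) and Rtf1 (r = 0.989).

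Npy encodes neuropeptide Y, which striatal and cortical Sst cells and neurogliaform cells release (NCBI gene 109648, chromosome 6, 49822710 to 49829507, plus strand). It stood at 66.0, 36.5 and 37.9 CPM in KO 1 to 3, against 8.39, 48.1 and 40.8 CPM in WT 1 to 3. WT 1 was far below the other 5 libraries, which overlapped between groups. The log2 fold change of 0.53 (SE 0.60, adjusted p = 0.824, edgeR) was 0.07 without WT 1. WT 1 was also the library with the lowest summed level of striatal markers, and the part of this in the Npy value was not tested; with the mean of the striatal list as a covariate the log2 fold change was 0.24. Nell2 followed Npy most closely (r = 0.998, n = 6 libraries), then Rasgef1c and Sirpa (r = 0.996 each). The log2 ratio of Npy to Sst in CPM was -1.95, -2.42 and -2.44 in KO 1 to 3, against -3.81, -1.73 and -2.23 in WT 1 to 3. The mean ratio differed by 0.32 (KO-labelled minus WT), within the spread between libraries (exact permutation p = 0.900, two-sided, where 3 against 3 cannot go below 0.1; adjusted p over both ratios tested = 0.900). Without WT 1 the difference was -0.29.

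Cck and Vip peaked together in the same 2 libraries, one of each group. Cck encodes cholecystokinin (NCBI gene 12424, chromosome 9, 121489824 to 121495694, minus strand), a peptide of basket interneurons that cortical excitatory neurons also make in quantity. Vip encodes vasoactive intestinal peptide (NCBI gene 22353, chromosome 10, 5639193 to 5647617, plus strand), which marks cortical interneurons that mainly inhibit other interneurons. Their promoters are shown beside that of Sst because cyclic AMP is known to act on all 3 genes. The windows are the 250 bases before the start of the promoter entry, at chr9:121495695-121495944 (minus strand) for Cck and chr10:5638968-5639217 (plus strand) for Vip. The Vip window reaches into the gene span given above. Capitals mark TGACG, the core that a full CRE holds on both strands, or its reverse complement CGTCA.
Cck: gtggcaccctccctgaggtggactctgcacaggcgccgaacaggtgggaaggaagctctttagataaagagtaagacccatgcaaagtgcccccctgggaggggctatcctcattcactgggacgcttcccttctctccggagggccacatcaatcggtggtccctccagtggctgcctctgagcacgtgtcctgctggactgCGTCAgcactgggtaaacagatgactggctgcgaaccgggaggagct
Vip: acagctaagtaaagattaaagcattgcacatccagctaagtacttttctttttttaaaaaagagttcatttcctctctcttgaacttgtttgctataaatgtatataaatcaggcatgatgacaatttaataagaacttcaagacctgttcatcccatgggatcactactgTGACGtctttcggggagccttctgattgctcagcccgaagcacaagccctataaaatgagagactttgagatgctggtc
Neither window held the full TGACGTCA. The core, which overlaps the full element in Sst, was present in 17.8% of all 32851 windows and in 5 of 9 members: Sst, Cck, Vip, Chat and Gad2. The 9 members have 12 windows, so the share per window and the count per member are not on the same basis.

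Cck stood at 137, 32.9 and 7.40 CPM in KO 1 to 3, against 4.17, 18.8 and 77.2 CPM in WT 1 to 3. The highest library exceeded the lowest 33.0-fold, the widest range among the members, and the range within a group was 18.6-fold in KO-labelled and 18.5-fold in WT libraries. Vip stood at 13.0, 4.61 and 1.41 CPM in KO 1 to 3, against 1.35, 0.720 and 9.17 CPM in WT 1 to 3. Its values rest on few counts: 221, 80 and 24 in KO 1 to 3, and 25, 12 and 158 in WT 1 to 3. KO 1 was highest and WT 3 second for both genes. The log2 fold changes were 0.83 for Cck (SE 1.25, adjusted p = 0.867) and 0.76 for Vip (SE 1.10, adjusted p = 0.861) in edgeR. Without KO 1 they were -0.73 and -0.31, and without WT 3 they were 2.37 and 2.60, with no call in either case.

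Part of the excitatory neuron list peaked in the same libraries: KO 1 and WT 3 were the 2 highest for 10 of its 18 genes. Neurod2, a transcription factor gene of these cells, and Npcd were most like Vip across the 6 libraries (r = 0.993 each), then Mfsd2a (r = 0.991). Neurod2 stood at 85.2, 12.8 and 1.47 CPM in KO 1 to 3 and 2.38, 0.600 and 31.2 CPM in WT 1 to 3. Slc17a7, the vesicular glutamate transporter of cortical neurons, named here after its values were seen, stood at 939, 174 and 13.6 CPM in KO 1 to 3 and 43.6, 34.5 and 455 CPM in WT 1 to 3. The other 8 genes had another order: Slc17a6, a second vesicular glutamate transporter, stood at 7.07, 12.8 and 23.7 CPM in KO 1 to 3 and 56.8, 29.5 and 40.8 CPM in WT 1 to 3. The mean log2 CPM of the excitatory list was highest in KO 1 (5.35) and WT 3 (5.22), no gene of the list was at 0 in any library, and the list had 13 of 18 genes with a log2 fold change above 0 (median 0.36). With that mean as a covariate, the log2 fold change was 0.06 for Cck (SE 1.01) and 0.60 for Vip (SE 0.34). The part of excitatory neuron content in the Cck and Vip values was not tested. The genes most like Cck were Wdr43, Shroom1 and Spag5 (r = 0.991 each). Wdr43 varied little, between 25.7 and 28.3 CPM, while Shroom1 lay between 8.61 and 12.5 CPM and Spag5 between 3.41 and 7.13 CPM. Cckbr, a cholecystokinin receptor gene, was also highest in KO 1 and WT 3, at 47.8, 10.7 and 9.39 CPM in KO 1 to 3 and 9.31, 10.7 and 28.8 CPM in WT 1 to 3. The other receptor gene, Cckar, had another order and was lowest in KO 1. It stood at 0.236, 3.86 and 3.11 CPM in KO 1 to 3 and 2.06, 1.74 and 1.28 CPM in WT 1 to 3.

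**Figure D3:**
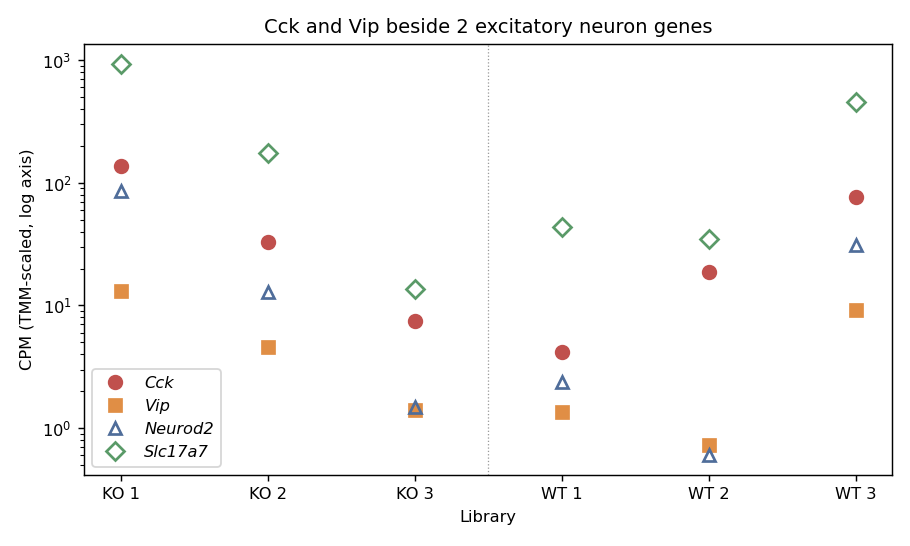
CPM (log axis) of Cck and Vip (filled symbols) and of the excitatory neuron genes Neurod2 and Slc17a7 (open symbols) in each library, KO-labelled on the left and WT on the right of the dotted line. KO 1 and WT 3 are the highest and second highest libraries for all 4 genes.

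Pvalb encodes parvalbumin, a calcium buffer of fast-spiking interneurons (NCBI gene 19293, chromosome 15, 78191112 to 78206400, minus strand). It stood at 18.9, 14.8 and 14.3 CPM in KO 1 to 3, against 11.0, 59.5 and 24.5 CPM in WT 1 to 3. WT 2 was high, and the other 2 WT libraries lay on either side of the KO-labelled ones. The log2 fold change of -0.99 (SE 0.57, adjusted p = 0.655, edgeR) was -0.16 without WT 2. Both Pvalb transcripts in the table were highest in WT 2, at 26.3 and 33.2 CPM. WT 2 also had the highest sum of striatal markers; with the striatal mean as a covariate the log2 fold change was -1.25. Iars2 (r = 0.996), Gask1b and Ptbp3 (r = 0.986 each) were most like Pvalb.

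Calb2 encodes calretinin (NCBI gene 12308, chromosome 8, 110142526 to 110168212, minus strand), a calcium-binding protein of cortical interneurons and of many SVZ neuroblasts on their way to the olfactory bulb. It stood at 24.6, 36.5 and 39.6 CPM in KO 1 to 3, against 222, 15.5 and 107 CPM in WT 1 to 3. The KO-labelled libraries lay close together, while WT libraries spanned a 14.3-fold range with 1 below and 2 above them. The means were 33.6 ± 7.95 CPM in KO-labelled and 115 ± 103 CPM in WT libraries (SD, n = 3 each), a log2 fold change of -1.77 (SE 0.82, adjusted p = 0.591, edgeR). Calb2 had the largest fitted change of the 10 genes, and its sign was the same in 17 of 17 alternatives, but its size was not: -0.87 without WT 1, -1.12 in limma-voom and -0.26 with the striatal mean as a covariate. WT 1 and WT 3, where Calb2 was high, had the lowest sums of striatal markers. The mean log2 CPM of the neuroblast list was 5.49, 5.70 and 5.75 in KO 1 to 3, against 5.91, 5.27 and 5.67 in WT 1 to 3. It was highest in WT 1 and lowest in WT 2, as Calb2 was, although the summed CPM of the list, given above, was highest in KO 1. The part of neuroblast content in the Calb2 value was not tested. Of the 15 neuroblast genes, 1 had an edgeR unadjusted p under 0.05, Cd24a, which was lower, against 6.39% of all genes. The groups did not overlap for 1 higher and 1 lower gene of this list, against 8.00% and 8.74% of all genes. Lats2 (r = 0.993) and Slc22a4 (r = 0.990) were among the genes most like Calb2.

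Lhx6 and Chat varied together within the KO-labelled group. Lhx6 encodes a LIM homeodomain factor that interneurons from the medial ganglionic eminence need for their migration and for Sst and Pvalb expression (NCBI gene 16874, chromosome 2, 36081950 to 36105992, minus strand). Chat encodes choline acetyltransferase, which makes acetylcholine in striatal interneurons and basal forebrain neurons (NCBI gene 12647, chromosome 14, 32408203 to 32465909, minus strand). Lhx6 stood at 21.0, 52.6 and 73.9 CPM in KO 1 to 3, against 34.7, 27.9 and 32.2 CPM in WT 1 to 3. Chat stood at 9.37, 21.6 and 29.7 CPM in KO 1 to 3, against 9.09, 15.2 and 13.2 CPM in WT 1 to 3. For both genes KO 3 was highest and KO 2 second, both above all WT libraries, and KO 1 was lowest for Lhx6 and second lowest for Chat. The log2 fold changes were 0.64 for Lhx6 (SE 0.42, adjusted p = 0.692) and 0.70 for Chat (SE 0.42, adjusted p = 0.668) in edgeR. Without KO 1 they were 1.0 for Lhx6 and 1.04 for Chat (edgeR adjusted p = 0.449 and 0.483), without KO 3 they were 0.22 and 0.31, and with KO 1 alone against WT they were -0.59 and -0.41. KO 1 is the single KO-labelled library whose genotype tag and title name the same gene.

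Several other cholinergic genes were also lowest in KO 1 among the KO-labelled libraries. Slc18a3, the vesicular acetylcholine transporter gene, stood at 4.95, 13.8 and 18.0 CPM in KO 1 to 3, against 6.71, 8.64 and 7.08 CPM in WT 1 to 3. It lies inside the Chat gene on the same strand (chromosome 14, 32462437 to 32464850), so its reads and those of Chat may not be fully separate. Slc5a7, the choline transporter gene, lies elsewhere and stood at 15.7, 28.3 and 54.2 CPM in KO 1 to 3, against 18.1, 26.3 and 24.4 CPM in WT 1 to 3. Lhx8, which specifies cholinergic neurons, stood at 3.65, 12.1 and 23.2 CPM in KO 1 to 3, against 13.3, 5.40 and 7.08 CPM in WT 1 to 3. Of 17 cholinergic genes tested, 11 had a log2 fold change above 0, with a median of 0.41. None passed the threshold. The one with the smallest p was the nicotinic receptor subunit gene Chrnb4, at 0.953 ± 0.317 CPM in KO-labelled and 3.26 ± 1.49 CPM in WT libraries (SD, n = 3 each; log2 fold change -1.77, SE 0.47, edgeR adjusted p = 0.321). Nkx2-1 encodes the factor that switches on Lhx6; chosen after a look at its values, it stood at 5.95, 11.6 and 19.5 CPM in KO 1 to 3, against 17.9, 12.4 and 10.3 CPM in WT 1 to 3, with KO 1 lowest and KO 3 highest. Zfp995, Popdc2 and Bfar were most like Lhx6 (r = 0.994, 0.992 and 0.984), and Wdr25 and Rtel1 were among the genes most like Chat (r = 0.998 and 0.988).

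**Figure D4:**
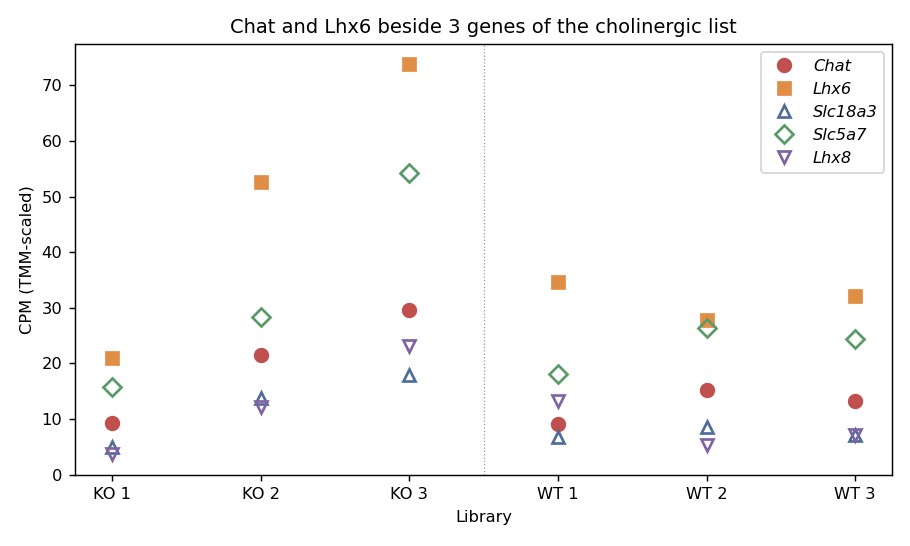
CPM (linear axis from 0) of Lhx6 and Chat (filled symbols) and of Slc18a3, Slc5a7 and Lhx8 (open symbols) in each library, KO-labelled on the left and WT on the right of the dotted line. KO 1 is at or near the bottom and KO 3 at the top for each of the 5 genes, while WT libraries lie between them or close to KO 1.

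Gad1 and Gad2 varied least. Gad1 (NCBI gene 14415, chromosome 2, 70561303 to 70602014, plus strand) stood at 520, 720 and 795 CPM in KO 1 to 3, against 652, 628 and 630 CPM in WT 1 to 3. Gad2 (NCBI gene 14417, chromosome 2, 22621015 to 22693877, plus strand) stood at 507, 597 and 851 CPM in KO 1 to 3, against 646, 579 and 692 CPM in WT 1 to 3. For both, KO 1 was the lowest library and KO 3 the highest, and the WT libraries lay between them. The log2 fold changes were 0.09 (SE 0.17, adjusted p = 0.896) and 0.03 (SE 0.20, adjusted p = 0.979) in edgeR. The sum of striatal markers, which are also from GABAergic neurons, differed more between libraries than either gene did. In WT 1, where striatal markers summed to 1893 CPM, Gad1 was at 652 CPM, and in WT 2, where they summed to 14771 CPM, it was at 628 CPM. The log2 ratio of Gad1 to Gad2 in CPM was 0.04, 0.27 and -0.10 in KO 1 to 3, against 0.01, 0.12 and -0.13 in WT 1 to 3, a difference of 0.07 that lay within the spread (exact permutation p = 0.600, two-sided; adjusted p = 0.900).

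Within Gad1 the estimated shares of the most abundant transcripts did not overlap between the groups. How often shares do so over all genes was not computed. The table holds 9 Gad1 transcripts. The main curated one, NM_008077.5, took 61.3%, 72.6% and 78.9% of Gad1 counts in KO 1 to 3, against 88.3%, 84.2% and 82.0% in WT 1 to 3. The level of NM_008077.5 did overlap, at 319, 522 and 627 CPM in KO 1 to 3, against 576, 529 and 517 CPM in WT 1 to 3 (log2 fold change -0.15, SE 0.25). The predicted transcript XM_006498767.2 took 30.8%, 20.7% and 12.9% in KO 1 to 3, against 2.51%, 4.74% and 8.50% in WT 1 to 3. Its level was 137 ± 30.8 CPM in KO-labelled and 33.2 ± 18.8 CPM in WT libraries (SD, n = 3 each), and the groups did not overlap. Over single transcripts this held in that direction for 6.76% of the 38616 tested, and for 2 of the 23 member transcripts tested (of 30 in the table), the other being that of Sst. Another 3 of the 23 were lower without overlap, against 7.67% of all transcripts tested: 2 minor Gad1 transcripts and Lhx6 NM_001083126.1. This Lhx6 transcript took 0%, 1.47% and 8.11% of Lhx6 counts in KO 1 to 3, against 22.7%, 24.1% and 39.3% in WT 1 to 3, on few counts. An edgeR fit to single transcripts, added after this split had been seen, gave a log2 fold change of 2.05 (SE 0.46, unadjusted p = 0.00565) and did not call it (adjusted p = 0.442), nor any other of the 38616 transcripts (0%; 2.08% had an unadjusted p under 0.05 and were higher). These are estimates of how reads shared by overlapping transcripts divide, and the fit does not carry the error of that division. An antisense transcript gene, Gad1os, overlaps the start of Gad1, has no row in the table, and is not told apart here, since the strandedness of the libraries is not given.

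**Figure D5:**
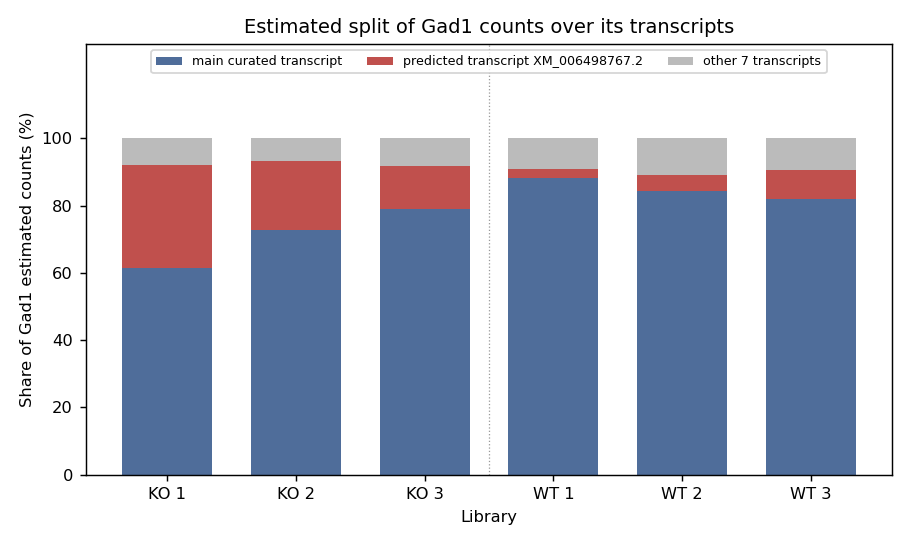
Share of Gad1 estimated counts (%, stacked from 0 to 100) taken in each library by the main curated transcript (blue), the predicted transcript XM_006498767.2 (red) and the other 7 transcripts (grey), KO-labelled on the left and WT on the right. The red share is 12.9% to 30.8% in KO-labelled and 2.51% to 8.50% in WT libraries.

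The genes that make, move and break down GABA showed no call either. Of 18 tested, 11 had a log2 fold change above 0, with a median of 0.11. Slc32a1, the vesicular GABA transporter gene, averaged 393 ± 104 CPM in KO-labelled and 335 ± 34.5 CPM in WT libraries (SD, n = 3 each), and like Gad1 it was lowest in KO 1, at 274 CPM. The smallest p values belonged to the liver-type glutaminase gene Gls2, at 18.8 ± 1.70 CPM in KO-labelled and 12.6 ± 1.23 CPM in WT libraries (log2 fold change 0.57, SE 0.13, edgeR adjusted p = 0.250), the monoamine oxidase gene Maob (-0.48, SE 0.14, adjusted p = 0.385) and the glutamine transporter gene Slc38a3 (-0.45, SE 0.18, adjusted p = 0.521).

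The receptors of the member peptides had no gene at an unadjusted p under 0.05 in edgeR, against 9.07% of all genes. None was without overlap between groups, against 16.7% of all genes. Of 13 tested, 10 had a log2 fold change above 0, with a median of 0.26. The somatostatin receptor genes Sstr2 and Sstr3 were lowest in WT 2, at 3.84 and 1.86 CPM, while the other libraries lay between 10.9 and 20.9 CPM for Sstr2 and between 9.10 and 17.9 CPM for Sstr3. Vipr1, a receptor gene for vasoactive intestinal peptide, was lowest in WT 1, at 1.46 CPM, against 13.7 to 24.2 CPM in the other 5 libraries. Npy1r, a neuropeptide Y receptor gene, averaged 18.2 ± 1.78 CPM in KO-labelled and 14.9 ± 7.31 CPM in WT libraries (SD, n = 3 each).

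Among other neuropeptide precursors 18 of 23 had a log2 fold change above 0 (median 0.23), and among the enzymes and chaperones that process them 7 of 12 (median 0.13), with no call. Vgf, which encodes a secreted granule protein, stood at 382, 418 and 403 CPM in KO 1 to 3, against 298, 343 and 348 CPM in WT 1 to 3, without overlap (log2 fold change 0.28, SE 0.11, adjusted p = 0.524). Pcsk1n, which encodes the proSAAS inhibitor of prohormone convertase 1, averaged 777 ± 81.1 CPM in KO-labelled and 595 ± 72.2 CPM in WT libraries (SD, n = 3 each; log2 fold change 0.38, SE 0.14, edgeR adjusted p = 0.494). The groups did not overlap for 1 higher and 1 lower of the 23 precursors, and for 2 higher and 1 lower of the 12 processing genes. Over all genes this held for 8.00% higher and 8.74% lower. The lower precursor, Pomc, averaged 0.681 CPM in KO-labelled and 1.04 CPM in WT libraries (log2 fold change -0.60, SE 0.35). The lower processing gene, Cpd, averaged 114 and 141 CPM (log2 fold change -0.30, SE 0.14). Of 29 other interneuron markers tested, 19 had a log2 fold change above 0 (median 0.12), and none had an unadjusted p under 0.05 in edgeR.

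The ventral forebrain transcription factor list, 21 genes without Lhx6, had 10 genes with a log2 fold change above 0 and 11 below, with a median of -0.07. The groups did not overlap for 1 higher and 3 lower genes of the 21, where 8.00% of all genes were higher and 8.74% lower without overlap. The higher one, Npas1, named for that reason, averaged 7.05 ± 0.128 CPM in KO-labelled and 3.88 ± 1.81 CPM in WT libraries (SD, n = 3 each; log2 fold change 0.86, SE 0.37, edgeR adjusted p = 0.555). Nr2f2, which marks interneurons of the caudal ganglionic eminence and also vascular cells, stood at 9.60, 13.5 and 12.6 CPM in KO 1 to 3, against 44.6, 32.3 and 26.7 CPM in WT 1 to 3. No library of one group reached the other (log2 fold change -1.54, SE 0.23, edgeR unadjusted p = 2.83e-04, adjusted p = 0.144, the lowest in the table, which 30 genes share). Prox1, another factor of that lineage, averaged 20.9 ± 6.15 CPM in KO-labelled and 39.2 ± 11.4 CPM in WT libraries, and Maf, a factor of the medial lineage, averaged 14.5 ± 2.16 CPM in KO-labelled and 19.0 ± 1.12 CPM in WT libraries (SD, n = 3 each), with log2 fold changes of -0.90 (SE 0.27) and -0.39 (SE 0.14) that did not pass. Vip, Calb2 and Cck, which cells of the caudal lineage carry, did not share a direction, and choroid plexus and ependymal markers were lower in the same libraries as Nr2f2; their part in its level was not tested.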

How the data were processed

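Groups follow the sample titles (3 KO-labelled, 3 WT). For each of 61481 RefSeq transcripts and library, the deposited table holds estimated counts, per the file headers, and deposited values read here as FPKM because they scale with count over transcript length. The submitters' processing notes name mm10 and limma 3.40.6; the sources used here name no aligner or quantifier.

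Counts were summed per NCBI gene number and rounded; RefSeq (GRCm38.p6) gave symbols for 18489 of 18614 genes, and the remaining 125 held at most 0.140% of a library. A floor of 3 counts is 0.170 to 0.176 CPM, counting error only. Libraries of a group were not duplicates (chi-square per degree of freedom at least 21.3). The main test was edgeR 4.0.16 (R 4.3.3, TMM, filterByExpr with minimum count 10, robust quasi-likelihood, no covariate). Its SE is the fold change over the root of F. The test was checked on simulated counts with the same dispersion (spread beyond counting error) for every gene. Such counts lack the differences between these libraries, so the check does not give the power in these data. Alternatives used DESeq2 1.42.0, limma 3.58.1 and other filters, scalings, covariates and left-out libraries. Likeness is Pearson's r of log2 CPM (prior count 2) over 6 libraries, highest over the genes tested. Named genes are the members, Zhx2, each list's 3 smallest p values, the GABA, cholinergic and receptor lists and the 3 genes most like each member. Members and lists were chosen with earlier results of these data known. Promoters are from RefSeq, which has no entry for Calb2 here. A few genes that these rules name are not reported here.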

Additional observations from a re-analysis of the deposited data

How the results depend on the processing

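No member was called in any of the 17 alternatives. The number of genes called over the whole table was 0 in edgeR and 311 in DESeq2; with single libraries left out it lay between 0 and 137, the highest without WT 3, and every other alternative gave 0. The number of members without overlap between groups was 1; it lay between 1 and 4 with single libraries left out, the highest without KO 1, and was 7 with KO 1 alone against WT. Fewer libraries make overlap less likely by construction. The share of all genes without overlap was not computed for these settings, so their counts cannot be read as a result about the members. Of 170 member log2 fold changes under alternatives, 158 kept their sign and 12 turned round. Gad2 was at -0.0019 in limma-voom, -0.03 in limma on log2(FPKM + 0.1), -0.21 without KO 3, and -0.05 without WT 2. With KO 1 alone, Lhx6 was at -0.59, Chat at -0.41, Gad1 at -0.29 and Gad2 at -0.33. With single libraries left out, Vip lay between -0.31 (without KO 1) and 2.60, Cck between -0.73 (without KO 1) and 2.37, Gad1 between -0.04 (without KO 3) and 0.25, and Gad2 between -0.21 and 0.18; the cause was not tested. The difference in the Gad1 to Gad2 ratio lay between -0.03 (without KO 2) and 0.15 with single libraries left out, and that in the Npy to Sst ratio between -0.29 (without WT 1) and 0.75. Same-numbered libraries did not deviate together (r = -0.162, -0.067 and -0.037 for numbers 1 to 3). With 3 libraries per group this shows no pairing by number but cannot exclude it. With the replicate block edgeR called 0 genes and 0 members, and Gad2 was at -0.0019. Depth limits Vip most, with 12 counts in WT 2.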
